A study of Mus musculus with 4 samples.

Results

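Neutrophils of the mouse extrahepatic bile duct were picked out of 4 droplet libraries by their transcripts. A cell was taken as a neutrophil when it had at least 500 detected genes, at most 25% mitochondrial UMIs (unique molecular identifiers, each standing for 1 captured transcript), at most 3 Epcam UMIs, at least 20 UMIs of S100a8 and S100a9 together, and a UMI of at least 2 of Csf3r, Retnlg, Cxcr2, Il1r2, G0s2 and Mmp9. This gave 804 neutrophils among 19246 cells past the gene and mitochondrial limits. With the gene minimum lowered to 200, the rule took 1858 cells.

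The libraries are suspensions of whole ducts of untreated mice, dissociated with dispase and a bacterial protease. Of these, 1 carries the genotype Prom1_BcatGOF, described for the series as gain of function in Ctnnb1 (encoding beta-catenin), active in a mosaic of cells (the GOF library), and 3 are wild type (WT 1, 2 and 3). The labels give no age, sex or strain, do not say in which cells the allele was active, and do not say whether replicates came from separate animals, so p-values measure only the spread between these samples. The lone GOF library was assumed to vary like the wild-type ones.

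Neutrophils are short-lived phagocytes made in the bone marrow. They fill their granules during maturation: primary granules with myeloperoxidase and elastase, later the secondary and tertiary granules with lactoferrin, cathelicidin and metalloproteinases. The mature cell carries the calprotectin subunits S100a8 and S100a9, leaves the marrow under the control of the CSF3 receptor and the chemokine receptor CXCR2, and once in tissue can transcribe cytokines such as Il1b and the CXCR2 ligand Cxcl2, which draws in further neutrophils.

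The 4 libraries gave unequal numbers of neutrophils. The GOF library held 299 (1133175 UMIs in all), WT 1 held 454 (630259 UMIs), WT 2 held 29 (61639 UMIs) and WT 3 held 22 (44000 UMIs). GOF neutrophils had a median of 1630 UMIs per cell and those of WT 1, 2 and 3 had 1177, 1159 and 1909, with medians of 820 and 582, 607 and 613 genes. Any 2 libraries shared between 5 and 19 barcodes. Levels below are CPM, the UMIs of a gene divided by all UMIs of the neutrophils of a library and multiplied by 1000000.

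Several facts of these libraries bear on every comparison. Per the file headers, version 7.0.0 of Cell Ranger wrote the counts of the GOF library and version 3.0.2 those of wild type, so genotype and counting software cannot be told apart. Xist stood at 73.6 CPM in GOF neutrophils and at 0 in those of all 3 wild-type libraries, while the Y-linked Ddx3y stood at 84.2 CPM against 119, 32.5 and 45.5 CPM, and the part of sex in the differences was not tested. In the GOF library 68 of 299 neutrophils (22.7%) also held at least 2 UMIs of 6 mononuclear phagocyte genes (Csf1r, C1qa, C1qb, C1qc, Adgre1, Ms4a7), against 19 of 454, 4 of 29 and 0 of 22 in WT 1, 2 and 3. Those 68 cells were large (median 7815 UMIs against 1542 in the others) and supplied 58.9% of all GOF neutrophil UMIs, of which 465675 remained without them. The main results are therefore also given without such cells. WT 3 stands apart in the transcripts of its neutrophils, as described below. The labels do not say whether blood was removed from the ducts, so neutrophils of the tissue and of the blood in it cannot be told apart in any library; erythroid genes summed to 26.6 CPM in GOF neutrophils and to 168, 0 and 22.7 CPM in those of WT 1, 2 and 3.

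The label was checked against markers that the rule did not use, which in sum were also high in these cells. Another 10 neutrophil genes summed to 4844 CPM in the GOF neutrophils and to 6752, 4401 and 20033 CPM in the wild-type ones, against 596 and 642, 644 and 456 CPM in mononuclear phagocytes of the same libraries. Not every marker was high in each library. Wfdc21 alone gave 9596 CPM of the WT 3 sum, Ly6g had no UMI in WT 2, and Clec4d had none in WT 3. The eosinophil genes Epx, Prg2 and Il5ra, the mast cell and basophil genes Mcpt8, Cpa3, Ms4a2, Fcer1a and Gata2, and the natural killer genes Ncr1, Klrd1 and Gzma were at 0 in the neutrophils of every library. T cell genes summed to at most 114 CPM and B cell genes to at most 176 CPM. The 10 mononuclear phagocyte genes summed to 1562 CPM in the GOF library and to 441, 1234 and 45.5 CPM in WT 1, 2 and 3, and to 183, 156, 67.6 and 45.5 CPM once cells with mononuclear phagocyte UMIs were left out.

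Transcripts of the surrounding tissue were present as well, most of all in WT 2. An Epcam UMI was found in 17.4% of GOF neutrophils and in 7.27%, 24.1% and 9.09% of wild-type ones. Fibroblast genes summed to 919 CPM in the GOF library and 935, 3995 and 45.5 CPM in WT 1, 2 and 3, so that in WT 2 they came close to the 4401 CPM of the further neutrophil genes. Duct epithelium genes summed to 622 CPM against 691, 1461 and 432 CPM. Pancreatic acinar genes summed to 14.2 CPM against 759, 129.9 and 909.6 CPM.

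The genes used for selection describe the cells and were not tested. S100a8 and S100a9 together had a median of 100.0 UMIs per neutrophil in the GOF library and of 100.5, 62.0 and 330.5 UMIs in WT 1, 2 and 3. The lowest value in WT 3 was 118 UMIs, whereas the GOF library and WT 1 reached down to the limit of 20. Near that limit, 21, 43, 4 and 0 neutrophils held 20 to 29 UMIs, and 41, 29, 4 and 0 cells just below it held 10 to 19 UMIs with the other criteria met. Csf3r, the receptor that keeps neutrophils alive, stood at 745 CPM in the GOF library and 1742, 926 and 364 CPM in WT 1, 2 and 3. Cxcr2, which guides them toward chemokines, stood at 269 and 715, 471 and 409 CPM. Retnlg, a secreted resistin-like protein of neutrophils, stood at 825 and 4132, 828 and 31630.2 CPM, far highest in WT 3. The other genes of the rule did not share 1 order. G0s2, an inhibitor of fat breakdown, stood at 1377 and 316, 65.0 and 136 CPM, highest in the GOF library. Il1r2, the decoy receptor for interleukin 1, stood at 769 and 505, 276 and 750.4 CPM. Mmp9, a gelatinase stored in tertiary granules, stood at 296 and 718, 325 and 1137 CPM, highest in WT 3.

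As a share of filtered cells, neutrophils were most frequent in WT 1. They made up 2.96% (exact 95% interval 2.64 to 3.31%) of cells in the GOF library, 9.95% (9.10 to 10.9%) in WT 1, 1.17% (0.784 to 1.68%) in WT 2 and 1.05% (0.657 to 1.58%) in WT 3. The GOF value lay inside the wild-type range, and its difference from the wild-type mean of 4.06 ± 5.11% (SD, n = 3) did not pass a two-sided exact permutation test (p = 1, where the smallest p the design allows is 0.25). Without WT 1, the GOF share was 1.85 percentage points above the wild-type mean; with it, 1.10 points below.

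The gene minimum set much of this. Between 200 and 499 genes lay 754 further neutrophils in WT 1 and 281 in WT 2, but 12 in the GOF library and 7 in WT 3. With them the shares became 2.90%, 20.2%, 9.74% and 1.17%. With at most 10% mitochondrial UMIs they were 2.97%, 23.0%, 3.30% and 5.33%, and the cells that remained as denominator were 9784 of 10101 in the GOF library and 1837 of 4562, 728 of 2480 and 394 of 2103 in WT 1, 2 and 3. Neutrophils themselves held few mitochondrial UMIs, with medians of 1.83% in the GOF library and 3.44%, 5.02% and 4.17% in WT 1, 2 and 3.

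**Figure D1:**
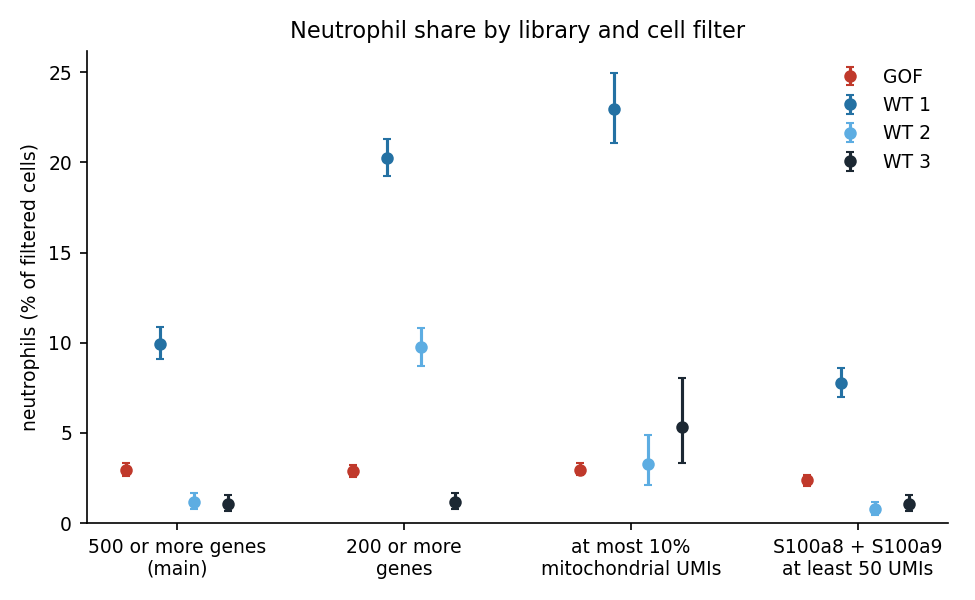
Neutrophils as a percentage of filtered cells (y axis) in each library under 4 cell filters (x axis), with exact 95% intervals for counting error. WT 1 is highest under every filter shown, WT 2 moves from 1.17% to 9.74% when the gene minimum drops to 200, and the GOF library stays between 2.38% and 2.97%.

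Relative to all other cells of the duct, 15 genes outside the selection rule were most enriched in neutrophils, each at 200 CPM or more in every library. They were Gm5483, Stfa2l1, Wfdc21, Slfn1, Ifitm1, Hdc, Cyp4f18, Slc7a11, Wfdc17, Ccr1, Mxd1, C5ar1, Nfam1, Lcp1 and Lyst. Because the cells were chosen by transcripts that travel with these, the enrichment is a description without a test. Stfa2l1 and Gm5483 belong to the stefin family of cysteine protease inhibitors. Hdc makes histamine, and its level was 919 CPM in the GOF library and 1885, 1283 and 773 CPM in the wild-type ones. C5ar1, the receptor for complement fragment C5a, stood at 594 and 1177, 357 and 387 CPM. Slc7a11, the cystine transporter, stood at 1138 CPM against 479.5, 292 and 250.1 CPM, but GOF mononuclear phagocytes also held 467 CPM of it. None of the 15 passed edgeR's test between GOF and wild type (adjusted p from 0.189 for Wfdc21 to 0.996 for Mxd1).

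The granule programme split the wild-type libraries. Transcripts of some secondary and tertiary granule genes were scarce in the neutrophils of GOF, WT 1 and WT 2 and abundant in those of WT 3. Others of that kind, such as Retnlg and Lcn2, were not scarce in any library but were also highest in WT 3. Ngp, a cystatin-like granule protein, stood at 386 CPM in the GOF library and 181, 16.2 and 23989.8 CPM in WT 1, 2 and 3. Camp, the cathelicidin, stood at 320.1 and 195, 0 and 7845 CPM. Ltf, lactoferrin, which binds iron, stood at 125 and 68.3, 16.2 and 2524 CPM. In each of these WT 3 alone was high, and the other 3 libraries were lower by more than 8-fold.

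A count over genes gave the same picture. It was made after the values had been seen. Of 988 genes at 200 CPM or more in the neutrophils of any wild-type library, 23 (2.33%) were at least 8-fold higher in WT 3 than in both other wild-type libraries. Among the 13 secondary and tertiary granule genes in that set, 9 were: Ltf, Camp, Ngp, Lcn2, Mmp8, Itgb2l, Ly6g, Cd177 and Anxa1. None of those 13 was that much higher in WT 1 or in WT 2, where the counts over all genes were 5 (0.506%) and 13 (1.32%). Mmp8, the neutrophil collagenase, stood at 87.3, 16.2 and 1296 CPM in WT 1, 2 and 3, and Cd177, a surface protein of mature neutrophils, at 15.9, 0 and 955 CPM. Ly6g, the surface marker used to sort mouse neutrophils, was low outside WT 3, at 21.3 CPM in the GOF library and 14.3, 0 and 250.1 CPM.

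Other genes outside the granule list followed WT 3 as well. BC100530, a stefin-family gene, stood at 8.87 CPM in the GOF library and 151, 211 and 59759 CPM in WT 1, 2 and 3. Its relative Stfa2 stood at 14.2 and 20.6, 16.2 and 7868 CPM. Stefin genes are near-identical copies, so reads may be split between them and single values are uncertain. Ifitm6, of the interferon-induced transmembrane family, stood at 174 and 309.6, 357 and 13779.9 CPM. Lcn2, lipocalin 2, was above 300 CPM in every library (1203 and 513, 357 and 6708 CPM), but epithelial cells of the same libraries also held 1816 and 4654, 1388 and 586 CPM of it. Ltf likewise stood at 394 and 775, 522 and 93.8 CPM in epithelial cells.

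Primary granule genes were sparse everywhere. Mpo, Elane and Ctsg encode the enzymes loaded at the promyelocyte stage. Mpo, Elane and Ctsg had no UMI in the neutrophils of any library, and none of the 7 primary granule genes in the reference was abundant enough for the test. Prtn3, Cst7 and Ms4a3 ranked highest of the 7 by mean level, and their levels are not given here. WT 3 thus held abundant secondary granule transcripts and none of Mpo, Elane or Ctsg, where 0 of 44000 UMIs allows up to 68.2 CPM each.

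A larger and more mixed set was low in WT 3. There 76 of the 988 genes (7.69%) were at least 8-fold lower than in both other wild-type libraries, against 6 (0.607%) for WT 1 and 12 (1.21%) for WT 2. Of the 76, 62 had no UMI in WT 3. They included 3 of the 7 cytokine and chemokine genes at 200 CPM (Il1b, Csf1 and Ccl4) and 3 of 10 genes described in long-lived tissue neutrophils. A single UMI in WT 3 is worth 22.7 CPM, which bounds how finely low levels can be read there. Il1b, the secreted interleukin 1 beta, stood at 4321 CPM in the GOF library and 2763, 1608 and 22.7 CPM in WT 1, 2 and 3. Cd44, an adhesion receptor for hyaluronan, stood at 1224 and 938, 698 and 68.2 CPM. Csf1, the macrophage growth factor, stood at 343 and 339.8, 244 and 0 CPM. Mif and Txnip had no UMI in WT 3 and were at 475 and 289 CPM in the GOF library. The low set also held collagen and other stromal genes that were highest in WT 2, such as Dcn and Col3a1.

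The promoters of 2 granule genes are shown because these genes were high together in WT 3 and lie on the same chromosome. C/EBP factors drive granule genes during maturation, and the C/EBP-type motif TTNNGNAA was searched on both strands of the 250 bases before the start site (RefSeq, GRCm38.p6). Capitals mark its matches.
Ngp (chr9:110419558-110419807, + strand): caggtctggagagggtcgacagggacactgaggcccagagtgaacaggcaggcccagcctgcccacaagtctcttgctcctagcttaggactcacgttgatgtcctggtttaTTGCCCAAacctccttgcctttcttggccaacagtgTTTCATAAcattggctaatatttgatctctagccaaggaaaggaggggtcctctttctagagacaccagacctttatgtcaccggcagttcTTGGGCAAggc
Ltf (chr9:111019042-111019291, + strand): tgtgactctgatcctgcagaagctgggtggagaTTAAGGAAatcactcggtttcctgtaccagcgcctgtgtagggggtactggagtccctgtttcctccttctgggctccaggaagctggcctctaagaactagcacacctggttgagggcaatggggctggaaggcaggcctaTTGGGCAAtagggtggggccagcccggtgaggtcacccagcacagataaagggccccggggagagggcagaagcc
Ngp held 3 matches, with first bases at -138, -102 and -11 from the start site, and Ltf held 2, at -217 and -75. The motif was found in 11 of 14 granule genes with a promoter in the table and in 36.9% of all 27025 promoters of that length. A match is a description of the letters, not a bound site.

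Cell by cell, the granule difference was a property of most WT 3 neutrophils and not of a few. Cells were thinned to 1000 UMIs, which kept 291 of 299 GOF neutrophils and 372, 25 and 22 of the wild-type ones, leaving out 8, 82, 4 and 0 shallower cells. An Ngp UMI was then found in 1.03% of GOF neutrophils and in 0.538%, 4% and 86.4% of those in WT 1, 2 and 3. The WT 3 share was 86.4% (95% interval 65.1 to 97.1%), with no overlap of intervals with the other libraries. In epithelial cells thinned alike, which should lack Ngp, the shares were 0.100% and 0%, 0% and 0.714%. Without thinning the neutrophil shares were 2.01% and 0.441%, 3.45% and 90.9%. At least 10 UMIs of Ngp, Camp and Ltf together were held by 13 of 22 neutrophils in WT 3 and by 0 of 25 in WT 2. In the GOF library and in WT 1 a single cell each reached that level, with 130 and 103 UMIs, and the next cell held 2 UMIs in both. The low Ngp and Camp levels of those libraries thus came mostly from 1 cell each. Ltf was more spread in the GOF library, with a UMI in 22 of 291 thinned neutrophils and at most 12 in a cell.

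Il1b ran the other way. An Il1b UMI was found in 93.5% of GOF neutrophils and in 86.8%, 76.0% and 0% of wild-type ones. The count of 0 among 22 thinned cells in WT 3 allows a share of up to 13.6% by a floor of 3 counts (exact upper limit 15.4%), and without thinning 1 of the 22 held an Il1b UMI. Epithelial cells gave 1.42% and 0.807%, 1.75% and 0% of thinned cells, far below the neutrophils of GOF, WT 1 and WT 2. Mononuclear phagocytes gave 27.9% and 5.26%, 6.20% and 3.30%. Cd44 was found in 70.8% and 55.6%, 60.0% and 4.55% of neutrophils, and Nlrp3, the inflammasome sensor that drives release of interleukin 1 beta, in 48.5% and 12.4%, 20% and 0%.

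Granule and cytokine UMIs were then summed per thinned cell. The granule sum (Ngp, Camp, Ltf, Lcn2, Mmp8, Cd177) had a median of 1 UMI in the GOF library and of 0, 0 and 25 UMIs in WT 1, 2 and 3. All 6 of these genes were among those at least 8-fold higher in WT 3, so the height of the sum there is a description. The cytokine sum (Il1b, Cxcl2, Tnf, Ccl3, Ccl4, Il1a) had medians of 15 and 3, 3 and 0 UMIs. At least 5 cytokine UMIs were held by 254 of 291 GOF neutrophils (87.3%), by 99 of 372 in WT 1 (26.6%), by 7 of 25 in WT 2 (28.0%) and by 0 of 22 in WT 3. At least 10 UMIs of the 6 granule genes were held by 10 GOF neutrophils, 1 in WT 1, 0 in WT 2 and 18 in WT 3, and 9 of those 10 GOF cells also held 5 or more cytokine UMIs. Within libraries, Spearman's correlation of the sums over cells was 0.22, -0.05, 0.57 and 0.08 over 291, 372, 25 and 22 cells, which share a library and a fixed depth and are not replicates.

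**Figure D2:**
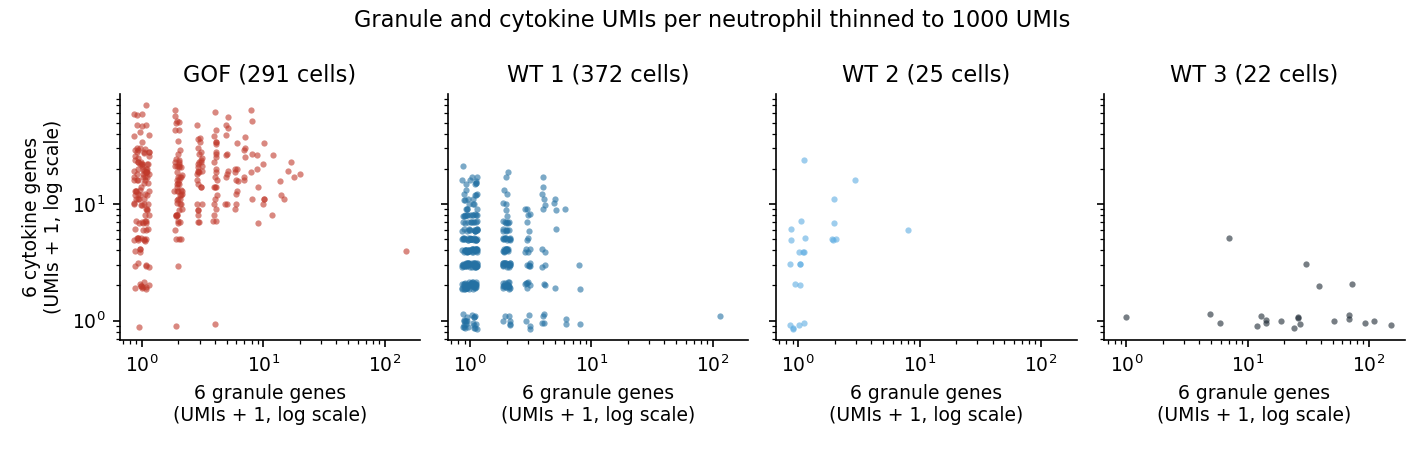
Each point is a neutrophil thinned to 1000 UMIs, with its summed UMIs of 6 granule genes (x axis) and of 6 cytokine genes (y axis), both plus 1 on log scales and slightly jittered, in the 4 libraries. GOF cells lie high (median 15 cytokine UMIs), WT 3 cells lie low and to the right (median 25 granule UMIs), and a single GOF and a single WT 1 cell lie at the far right.

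The genes that varied most among thinned neutrophils were 3 genes of the rule and 9 others. Of 307 genes with a mean of at least 0.2 UMIs in every library, S100a9, S100a8, Fth1, Malat1, Wfdc17, mt-Co3, Retnlg, mt-Co1, S100a6, Cxcl2, Ifitm1 and Lyz2 had the highest mean rank of the Fano factor (variance over mean, 1 for pure counting noise). S100a9 had Fano factors of 29.8 in the GOF library and of 21.3, 16.2 and 16.0 in WT 1, 2 and 3. Fth1, the ferritin heavy chain, had 22.0 and 8.25, 14.8 and 6.45. Retnlg had 21.1 and 14.1, 3.03 and 24.4. Cxcl2 had 10.1 in the GOF library and 3.25, 3.82 and 2.39 in WT 1, 2 and 3. Lyz2, which mononuclear phagocytes also carry at high level, had 11.1 and 3.12, 3.33 and 2.18.

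GOF neutrophils were then compared with wild-type neutrophils to ask what differs between the genotypes in these cells. Several chemokine and cytokine genes rose: Cxcl2, Cxcl3, Ccl3, Tnf, Il1a and Ccl9 passed the test, and the falls were led by stefin genes and by pancreatic transcripts. Over 6295 genes tested on summed UMIs, 130 were higher (2.07%) and 40 lower (0.635%) in GOF neutrophils at an adjusted p under 0.05 in edgeR's quasi-likelihood test. Without cells holding mononuclear phagocyte UMIs, 101 of 5014 were higher (2.01%) and 25 lower (0.499%), with 64 higher and 24 lower in both. DESeq2 called 7 higher and 5 lower, and without WT 1 the calls fell to 25 and 17 among 1337 genes.

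Long introns marked the rises. Intron length was taken as the bases of a gene in no annotated exon. Genes called higher had a median of 117 kb, against 20.1 kb for all tested genes and 3.80 kb for genes called lower. At most 5 kb of intron was found in 13.8% of the higher genes, 62.5% of the lower ones and 21.1% of all. Whether intronic reads were counted is not given in the sources used here, and the part of this in the calls cannot be told apart from genotype. In a fit of the 1346 genes with at most 5 kb of intron, 30 were higher and 20 lower.

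Cxcl2, the neutrophil-attracting ligand of CXCR2, stood at 5478 CPM in GOF neutrophils against 484, 438 and 455 CPM in WT 1, 2 and 3, whose mean was 459 ± 23.3 CPM (mean ± SD, n = 3). The 3 wild-type libraries lay close together and the GOF library far above them (log2 fold change 3.29 ± 0.97 (SE), adjusted p = 0.0297). Without cells holding mononuclear phagocyte UMIs the values were 7730.4 against 501, 586 and 455 CPM (log2 fold change 3.75 ± 0.99 (SE), adjusted p = 0.0115). Every base of the gene lies in an annotated exon of some transcript, and it passed among the genes with little intron too (adjusted p = 0.00198). The call did not hold without WT 1, 2 or 3 in turn (adjusted p = 0.145, 0.17 and 0.0518) or with DESeq2 (adjusted p = 0.0791). With 200 or more genes per cell, the wild-type values were 460.4, 1255 and 605 CPM, all under the GOF value of 5648 CPM.

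In thinned cells a Cxcl2 UMI was found in 81.4% of GOF neutrophils and in 22.0%, 32.0% and 18.2% of wild-type ones. Epithelial cells gave 4.06% and 1.52%, 1.98% and 0.119%. Mononuclear phagocytes showed a difference too, with 56.4% against 2.11%, 12.4% and 6.59% of thinned cells and 1797 against 15.6, 198 and 92.0 CPM (log2 fold change 4.08 ± 0.78 (SE), adjusted p = 0.00882). The difference between the neutrophil and the mononuclear phagocyte effects of Cxcl2 was -1.06 ± 1.15 (SE) on the log2 scale (adjusted p = 1).

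Its neighbour Cxcl3, another CXCR2 ligand, stood at 102 CPM in the GOF library and at 1.59, 0 and 0 CPM in WT 1, 2 and 3, where 1 UMI was counted in all. The pooled ratio was 75.0 (95% counting interval 13.2 to 2987), and the gene passed the test (log2 fold change 5.69, adjusted p = 0.00534; without mononuclear UMIs 0.0282). With 200 or more genes its log2 fold change was 2.59 (adjusted p = 0.0138), and without mononuclear phagocyte UMIs the call was lost both there (adjusted p = 0.159) and after thinning (adjusted p = 0.0545). The promoters of both are shown because both rose and because NF-kB, which drives inflammatory chemokines, is known to act at such sites. The NF-kB motif, GGGAA followed by any 3 bases and then CC, was searched on both strands of the same 250 bases, and capitals mark matches.
Cxcl2 (chr5:90903649-90903898, + strand): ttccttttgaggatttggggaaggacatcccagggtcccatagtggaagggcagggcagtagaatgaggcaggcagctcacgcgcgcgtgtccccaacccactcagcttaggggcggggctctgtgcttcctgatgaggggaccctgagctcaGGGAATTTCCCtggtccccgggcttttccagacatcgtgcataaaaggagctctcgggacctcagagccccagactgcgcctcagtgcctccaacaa
Cxcl3 (chr5:90785851-90786100, + strand): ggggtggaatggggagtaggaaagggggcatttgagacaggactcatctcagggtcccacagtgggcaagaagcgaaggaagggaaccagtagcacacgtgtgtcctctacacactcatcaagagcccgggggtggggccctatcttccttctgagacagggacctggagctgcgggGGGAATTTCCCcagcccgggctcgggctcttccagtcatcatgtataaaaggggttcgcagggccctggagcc
In each promoter the same stretch matched on both strands, starting at -97 and -96 in Cxcl2 and at -73 and -72 in Cxcl3. The motif was present in 6 of 15 cytokine and chemokine genes with a promoter in the table (Csf1, Cxcl1, Cxcl10, Cxcl2, Cxcl3 and Il6) and in 4.81% of all promoters. Each motif was found in the other list too: the NF-kB motif was also in 4 of 14 granule genes and TTNNGNAA in 8 of 15 cytokine genes. The NF-kB motif was not in this window of Tnf, Ccl3 or Il1a, and it overlapped with TTNNGNAA in neither printed promoter.

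The other cytokines gave a graded picture. Ccl3, the macrophage inflammatory protein 1 alpha, stood at 413 against 33.3, 16.2 and 0 CPM (log2 fold change 3.81 ± 0.99 (SE), adjusted p = 0.00941), and at 604 against 31.6, 22.5 and 0 CPM without cells holding mononuclear phagocyte UMIs (adjusted p = 0.00161). Tnf, tumour necrosis factor, stood at 326 against 27.0, 0 and 0 CPM (log2 fold change 3.88 ± 1.00 (SE), adjusted p = 0.00847) and at 492 against 26.6, 0 and 0 CPM without them (adjusted p = 0.00151). Neither overlapped between the groups, which is a description, since the share of all genes without overlap was not counted. Tnf entered the test through its GOF level alone, which fixed this order. A Tnf UMI was found in 23.4% of thinned GOF neutrophils and in 2.15%, 0% and 0% of wild-type ones, with 1.62% and 2.58%, 0.992% and 0.952% in epithelial cells. Both calls were lost without WT 1 (adjusted p = 0.0513 and 0.112) or WT 2 (adjusted p = 0.0668 and 0.0824), and with DESeq2 (adjusted p = 0.212 and 0.312).

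Il1a stood at 70.0 CPM in the GOF library against 1.59, 0 and 0 CPM in WT 1, 2 and 3, which held 1 UMI in all. The pooled ratio was 51.5 (95% counting interval 8.98 to 2059.9) (adjusted p = 0.021; without mononuclear UMIs 0.0186). The log2 fold change of Il1a went from 5.15 to 3.80 with 200 or more genes, and its call was lost among cells with at least 50 S100a8 and S100a9 UMIs (adjusted p = 0.153). Cxcl10, an interferon-inducible chemokine, stood at 112 against 3.33, 0 and 0 CPM without cells holding mononuclear phagocyte UMIs and passed there (adjusted p = 0.0132) but not with all cells (adjusted p = 0.0709). Ccl9 passed with all cells (325 against 1.59, 32.5 and 45.5 CPM, adjusted p = 0.0105), but its GOF level was 19.4 CPM without those cells, where it was too sparse to test, and GOF mononuclear phagocytes held 959.7 CPM of it.

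Il1b and Ccl4 did not pass. Il1b, at 7314 CPM against 2794, 2049.8 and 22.7 CPM without cells holding mononuclear phagocyte UMIs, was higher in the GOF library than in every wild-type library, but the wild-type spread was wide (log2 fold change 2.07 ± 1.01 (SE), adjusted p = 0.424). Ccl4, the companion of Ccl3, stood at 566 against 106, 389.7 and 0 CPM (log2 fold change 1.70 ± 0.94 (SE), adjusted p = 0.565), so that WT 2 lay near the GOF library. Across the cytokine and chemokine list of 20 genes, 6 of 17 tested were higher and 0 lower, and all 17 estimates were positive, with a median log2 fold change of 2.20. Some of these genes were low in every wild-type library and entered the test through their GOF level alone, among them Cxcl3, Il1a and Tnf. Their positive sign was given by that entry, so the count of positive estimates is a description. Without cells holding mononuclear phagocyte UMIs this also held for Ccl3 and Cxcl10. Over all genes tested, 51.1% of estimates were positive and the median was 0.03. Without cells holding mononuclear phagocyte UMIs 6 of 15 were higher, with a median of 2.16 against -0.03. DESeq2 called none of the 11 genes of this list for which it gave an adjusted p. By edgeR the count was 6 of 18 without WT 3, 4 of 18 without WT 2 and 0 of 10 without WT 1.

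**Figure D3:**
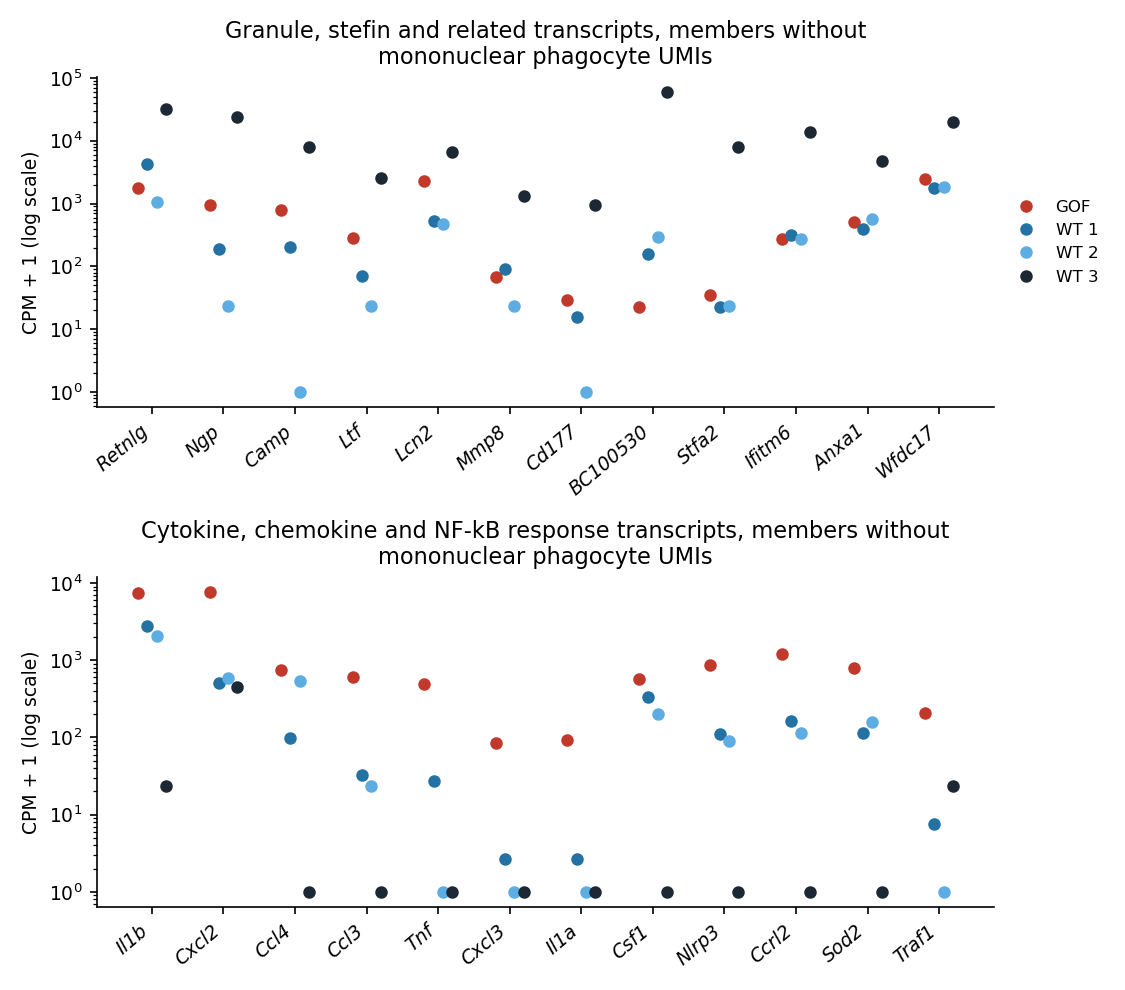
CPM plus 1 (y axis, log scale) of granule and related genes (top) and of cytokine, chemokine and NF-kB response genes (bottom) in the neutrophils of each library, leaving out cells with mononuclear phagocyte UMIs; a point at 1 is a gene with 0 UMIs. WT 3 is highest for every gene of the top panel, and the GOF library is highest for every gene of the bottom panel, such as Cxcl2 at 7730.4 CPM. The genes shown were picked from longer lists after their values were seen, so this order is a description.

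Among targets of NF-kB, Sod2 and Traf1 passed. Thus 2 of 16 genes were higher and 0 lower, where 2.07% of all genes were higher, and 15 of 16 estimates were positive (median log2 fold change 1.85), where 51.1% of all were. Traf1 entered the test through its GOF level alone, which gave its positive sign. DESeq2 gave an adjusted p for all 16 and called none. Without cells holding mononuclear phagocyte UMIs 3 were higher (median 2.33). Sod2, mitochondrial superoxide dismutase, stood at 907 against 114, 146 and 0 CPM (log2 fold change 3.06 ± 0.93 (SE), adjusted p = 0.0383). Traf1, an adaptor of TNF receptors, stood at 176 against 7.94, 0 and 22.7 CPM (log2 fold change 4.03 ± 1.10 (SE), adjusted p = 0.0169). Ccrl2, a chemerin-binding receptor, stood at 1191 against 163, 113 and 0 CPM without those cells (log2 fold change 3.37 ± 0.88 (SE), adjusted p = 0.0115). Nfkbia, the inhibitor that NF-kB itself induces, stood at 2357 against 624, 731 and 387 CPM and did not pass (log2 fold change 1.79 ± 0.96 (SE), adjusted p = 0.54). Without WT 2 no gene of the list passed, and without WT 3 Traf1 alone did.

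Single genes of related lists passed as well. Bcl2a1a, a survival gene of the Bcl2 family, stood at 572 against 31.8, 81.2 and 0 CPM (log2 fold change 3.71 ± 0.97 (SE), adjusted p = 0.0109), a call lost without WT 3 (adjusted p = 0.0555) and in DESeq2 (adjusted p = 0.182). It is a near-identical copy of Bcl2a1b and Bcl2a1d, so its share of reads is uncertain, and Bcl2a1b stood at 860.1 against 141, 162 and 0 CPM (adjusted p = 0.0822). Fosb, an immediate early transcription factor, stood at 184 against 11.1, 32.5 and 0 CPM (log2 fold change 3.48 ± 1.05 (SE), adjusted p = 0.0364). The Fosb call was lost without WT 1, 2 or 3 in turn (adjusted p = 0.882, 0.0786 and 0.08) and in DESeq2 (adjusted p = 0.533). Immediate early genes also respond to dissociation of tissue, and its part was not tested. Of 19 tested, 1 was higher (2.07% of all genes were) and 12 estimates were positive (51.1% of all). Without cells holding mononuclear phagocyte UMIs 2 of 19 were higher (2.01% of all) and 17 positive (48.9% of all). In mononuclear phagocytes 6 of 19 were higher in the GOF library (626 of all 8211), and in epithelial cells 8 of 20 (2080 of all 16205). The abundant members Junb, Btg1 and Klf2 did not pass with all cells (adjusted p = 0.996, 0.996 and 0.966). Ptges, which makes prostaglandin E2, stood at 88.7 against 1.59, 0 and 0 CPM (adjusted p = 0.00847), but at 12.9 CPM in the GOF library without cells holding mononuclear phagocyte UMIs.

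A further 3 regulators passed in the fit without those cells but not with all cells. Nlrp3, the inflammasome sensor, stood at 872 against 111, 90.1 and 0 CPM (log2 fold change 3.35 ± 0.90 (SE), adjusted p = 0.0132), against an adjusted p of 0.113 with all cells. Atf3, a stress-induced repressor, stood at 373 against 44.9, 22.5 and 0 CPM (log2 fold change 3.37 ± 0.95 (SE), adjusted p = 0.0206), against 0.0632. Atf3 is also on the list of immediate early genes. Cd274, which encodes PD-L1, stood at 151 against 15.0, 0 and 0 CPM (log2 fold change 3.51 ± 1.05 (SE), adjusted p = 0.0363), against 0.0561. In all 3 genes every wild-type library was below the GOF library, but the share of all genes of which this holds was not counted. Cd274 entered that fit through its GOF level alone, which fixed its order.

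The largest rises overall were of another kind. Apoc2, Dcstamp, Hivep2, Plcb1, Hivep3, Xist, Alpk1, St3gal3, Enox2 and Ccl24 led, each with no UMI in any wild-type neutrophil. Against a floor of 3 UMIs over the wild-type group, Apoc2, an apolipoprotein of macrophages and liver, was at least 51.1-fold higher and Dcstamp, a fusion protein of osteoclasts and macrophages, at least 39.8-fold higher. Without cells holding mononuclear phagocyte UMIs their GOF levels were 15.1 and 4.32 CPM, from 208 and 162 CPM, and both became too sparse to test. Of the 130 genes called higher, 36 were too sparse to test without those cells.

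Hivep2 and Plcb1 remained called (adjusted p = 0.00265 and 0.0112), at 110.0 and 82.0 CPM, and have 172 and 678 kb of intron. In the fit without those cells the largest rises were Xist, Hivep2, Plcb1, Pik3ap1, Atp6v0c, Rnasek, Ikbke, Muc6, Mpp7 and Lrmda. Atp6v0c, a subunit of the vacuolar proton pump, stood at 953 against 9.53, 0 and 0 CPM in neutrophils (log2 fold change 6.72 ± 1.12 (SE), adjusted p = 7.36e-06) with 2.45 kb of intron. It also differed in mononuclear phagocytes (log2 fold change 7.48, adjusted p = 0.000118) and in epithelial cells (log2 fold change 7.25, adjusted p = 0.00236) of the same libraries. Lrmda, with 1034 kb of intron, stood at 881 against 6.35, 0 and 0 CPM and likewise differed in both (log2 fold change 6.07 and 4.60). Ikbke, a kinase of the interferon and NF-kB pathways, stood at 175 against 1.66, 0 and 0 CPM (log2 fold change 6.38 ± 1.35 (SE), adjusted p = 0.00115).

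The largest falls were BC100530, Ccl21a, Rnase1, Cela3b, Ptp4a1, Pnlip, Sycn, Cela2a, Cpa1 and Stfa2. Of these, 6 encode pancreatic enzymes or acinar proteins: Rnase1, Cela3b, Pnlip, Sycn, Cela2a and Cpa1. None of the 6 had a UMI in GOF neutrophils, and Rnase1 was at least 46.0-fold lower against a floor of 3 UMIs. The wild-type levels were modest, at 132, 32.5 and 114 CPM for Rnase1, and mononuclear phagocytes of the same libraries held 0.231 and 17.3, 97.7 and 104 CPM. Acinar genes summed to 13.6 CPM in GOF mononuclear phagocytes and to 227, 1545 and 817 CPM in wild-type ones, the same direction as in neutrophils. Their part in the falls was not tested.

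Ccl21a, a chemokine of lymphatic endothelium, stood at 1.77 CPM in the GOF library and at 9.53, 5001 and 68.2 CPM in WT 1, 2 and 3 (log2 fold change -9.55 ± 1.84 (SE), adjusted p = 0.000215). WT 2 alone was high, and without it the gene was too sparse to test. Ccl21 genes are near-identical copies, so its reads are uncertain. BC100530 and Stfa2 rested on WT 3 in large part: without it their log2 fold changes were -4.40 (adjusted p = 0.0398) and -0.72 (adjusted p = 0.941), from -11.60 and -8.00. Ptp4a1, a phosphatase, stood at 0 against 84.2, 97.4 and 22.7 CPM, and at 0.154 against 50.2, 75.7 and 72.9 CPM in mononuclear phagocytes.

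The granule list followed the same library. Among 14 secondary and tertiary granule genes tested outside the selection rule, 1 was lower in the GOF library, Cd177 (log2 fold change -4.93 ± 1.38 (SE), adjusted p = 0.0194), and 12 estimates were negative, with a median log2 fold change of -2.77. Without WT 3 the median was 0.53 and none of 13 passed, and Cd177 had a log2 fold change of -0.31 (adjusted p = 0.979). Ngp went from a log2 fold change of -4.88 (adjusted p = 0.0508) to 1.46 (adjusted p = 0.706), changing sign. Without cells holding mononuclear phagocyte UMIs Cd177 also missed the threshold (adjusted p = 0.0772).

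**Figure D4:**
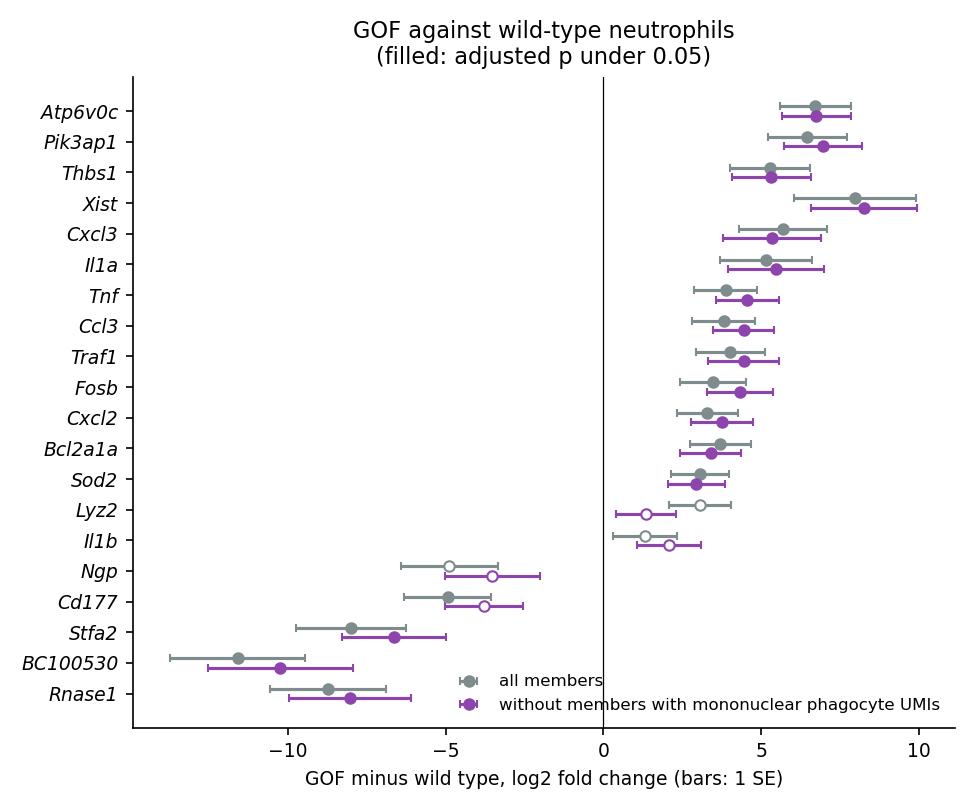
Log2 fold change of GOF against wild-type neutrophils (x axis, bars 1 SE) for 20 genes with all cells (grey) and without cells holding mononuclear phagocyte UMIs (purple), filled where the adjusted p was under 0.05. Cytokine genes such as Tnf (3.88 and 4.56) stay called in both fits, while Cd177 (from -4.93 to -3.78) is called in the first alone and Lyz2 moves from 3.06 to 1.35.

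Basic equipment of the neutrophil gave no calls in edgeR with all cells, and DESeq2 called none of it either. DESeq2 gave no adjusted p for 1 pattern receptor and 1 transcription factor gene. With 1 GOF library and the wild-type spread seen here, the lack of a call does not show that a gene was alike in both genotypes. At an unadjusted p under 0.05 stood 1 of the NADPH oxidase, 0 of the adhesion, 3 of the pattern receptor, 0 of the cytokine receptor and 0 of the transcription factor genes. None of the 6 NADPH oxidase subunits passed, with a median log2 fold change of -0.12; Cyba stood at 2373 against 1926, 1185 and 1342 CPM. None of 14 adhesion and migration genes passed: Selplg, the selectin ligand that starts rolling, stood at 181 against 926, 422 and 364 CPM (log2 fold change -1.99 ± 1.15 (SE), adjusted p = 0.601), below every wild-type library. Among 15 pattern and danger receptors none passed with all cells and Nlrp3 alone without cells holding mononuclear phagocyte UMIs; Clec4e, a receptor for dead cells and mycobacteria, stood at 1584 against 335, 195 and 250.1 CPM (log2 fold change 2.27 ± 0.94 (SE), adjusted p = 0.241). The 13 cytokine receptors tested outside the rule and the 13 transcription factors of the neutrophil lineage held no call, and Cebpb, which acts in emergency granulopoiesis, stood at 2633 against 4329, 3037 and 1205 CPM.

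Interferon and metabolic genes did not pass either with all cells, in edgeR or in DESeq2, with 2 interferon response, 4 long-lived neutrophil, 0 glycolysis and 0 oxidative phosphorylation genes at an unadjusted p under 0.05. DESeq2 gave no adjusted p for 4 of the 12 interferon response and 3 of the 19 long-lived neutrophil genes. Of 12 interferon response genes tested, 0 passed, and Isg15 stood at 154 against 464, 227 and 22.7 CPM (log2 fold change -0.99 ± 1.05 (SE), adjusted p = 0.946). Without cells holding mononuclear phagocyte UMIs 1 of 12 was higher, where 2.01% of all genes were. Glycolysis genes (15 tested) and oxidative phosphorylation genes (20 tested) held no call, with medians of -0.57 and -0.74. Eno1, enolase, stood at 248 against 1061, 861 and 978 CPM (log2 fold change -2.26 ± 1.18 (SE), adjusted p = 0.521), below every wild-type library. Of 19 genes described in long-lived tissue neutrophils none passed with all cells, and Cd274 and Atf3 passed without cells holding mononuclear phagocyte UMIs. Spp1, osteopontin, varied among libraries, at 982 and 233, 1250.3 and 68.2 CPM, with 3451 and 27.7, 4296 and 825 CPM in mononuclear phagocytes, and Siglecf, a marker of tissue neutrophils in tumours, was low, at 19.5 and 55.6, 16.2 and 0 CPM.

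Ctnnb1 and its target Axin2 did not pass in neutrophils. Ctnnb1 stood at 88.7 CPM in GOF neutrophils and at 233, 438 and 45.5 CPM in wild-type ones (log2 fold change -1.60 ± 1.09 (SE), adjusted p = 0.764), with the GOF value inside the wild-type range. A 3′ count of Ctnnb1 does not show whether the allele recombined. The list of 13 genes holds Ctnnb1 itself, and of the 12 others Axin2 alone was abundant enough to test: this direct target stood at 11.5 and 1.59, 32.5 and 0 CPM and did not pass (log2 fold change 0.68 ± 1.95 (SE), adjusted p = 0.996). In epithelial cells 10 of those 12 were higher in the GOF library, and Ctnnb1 was lower (log2 fold change -1.34 ± 0.23 (SE), adjusted p = 0.0201). Of all 16205 genes tested in epithelial cells, 2080 were higher and 702 lower.

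Ligands that draw neutrophils were looked up in the other cells of the duct. Cxcl5, a CXCR2 ligand of epithelium, stood at 195 CPM in GOF epithelial cells and at 2763, 1263 and 57.7 CPM in wild-type ones, highest in WT 1, which also had the largest share of neutrophils. WT 2, second in Cxcl5, held a smaller share of neutrophils than the GOF library at 500 or more genes and a larger one at 200 or more genes, where the order of the 4 shares was that of Cxcl5. Cxcl1 stood at 31.5 and 68.6, 40.3 and 6.27 CPM in epithelial cells. Cxcl2, also a CXCR2 ligand, was instead highest in the GOF library. Its UMIs were found in 4.06% of thinned GOF epithelial cells and in 1.52%, 1.98% and 0.119% of wild-type ones. In thinned mononuclear phagocytes the percentages were 56.4% and 2.11%, 12.4% and 6.59%. Csf3, the growth factor of neutrophils, had 1 UMI in all neutrophils together, and its level in the other cells is not given here. With 4 libraries no relation between ligand and share was tested.

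The GOF effect in neutrophils was compared with that in mononuclear phagocytes in 1 model blocked by library, so that a shift common to both cell types drops out. Of 9066 genes, 7 had a larger effect in neutrophils (0.0772%) and 4 a smaller one (0.0441%); DESeq2 called 0, with 329 genes at an unadjusted p under 0.05 in edgeR. Of these, 3 met the rule for named genes, Ccl24, Thbs1 and Ccl21a. Ccl24, an eosinophil-attracting chemokine made by macrophages, had 61 UMIs in GOF neutrophils, all in cells that also held mononuclear phagocyte UMIs, and 0 in wild-type ones. Thbs1, the matrix protein thrombospondin 1, stood at 139 CPM in GOF neutrophils against 3.18, 0 and 0 CPM in wild-type ones, and at 124 against 187, 389.5 and 88.2 CPM in mononuclear phagocytes (difference of effects 6.33 ± 1.55 (SE) log2, adjusted p = 0.0367). GOF epithelial cells held 208 CPM against 5.15, 15.0 and 11.4 CPM, and the difference of effects between neutrophils and epithelial cells was 0.95 (adjusted p = 1). A gene without a call here is not shown to respond alike in both cell types. In mononuclear phagocytes 7 of 17 cytokine and 8 of 16 NF-kB response genes were themselves higher in the GOF library, where 626 of all 8211 genes tested were.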

How the data were processed

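The deposited values are raw UMI counts per gene and barcode, which the authors made with Cell Ranger (7.0.0 for the GOF library and 3.0.2 for the wild-type libraries, per the file headers; 7.1 with mm10, per the submitters' processing notes). The 30406 gene identifiers common to both references were used. The members and gene lists were chosen with earlier results of these data known. UMIs were summed per library over neutrophils, and GOF (1 library) was compared with wild type (3 libraries) by edgeR 4.0.16 (quasi-likelihood test, TMM scaling, its low-count filter, Benjamini-Hochberg adjusted p under 0.05). A gene could pass that filter through the GOF library alone. The same test compared the GOF effect with that in mononuclear phagocytes (Csf1r and at least 2 of 7 further genes), with the library as a block. DESeq2 1.42.0, other cell filters and scalings, thinning and each wild-type library left out were alternatives. Doublets ranked highest by Scrublet (scanpy 1.11.5) were left out in 1 alternative and otherwise kept. Intervals are exact (Clopper-Pearson) and cover counting error only. The tests were checked on simulated counts. Named genes were the 10 largest rises and falls past the threshold with at least 50 CPM, up to 6 each way for the difference between cell types, up to 4 per list, the 15 most enriched and the 12 most variable genes; others, such as the genes that stood apart in WT 3, were chosen after their values were seen. The fits without mononuclear phagocyte UMIs at 200 genes or after thinning were added after seeing the data.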

Additional observations from a re-analysis of the deposited data

Results flagged for a closer look

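In 3 genes the GOF effect in neutrophils differed from that in mononuclear phagocytes by edgeR's test of the difference. Ccl24 differed by 11.32 on the log2 scale (adjusted p = 0.022), but by 1.52 (adjusted p = 1) without neutrophils that held mononuclear phagocyte UMIs. Thbs1 differed by 6.33 (adjusted p = 0.0367), by 6.44 without such cells (adjusted p = 0.0942) and by 0.95 against epithelial cells (adjusted p = 1). Ccl21a differed by -7.01 (adjusted p = 0.022), with 5001 CPM in WT 2 neutrophils alone, and by -4.01 without WT 2 (adjusted p = 1). What lies behind these differences was not tested.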

How the results depend on the processing

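No paired analysis was possible because there was 1 GOF library and its label does not link it to any wild-type library. The difference in share, -1.10 percentage points, became -7.49 with 200 or more genes and -7.56 with at most 10% mitochondrial UMIs, and ran from -2.60 to 1.85 with each wild-type library left out. The 170 calls between GOF and wild-type neutrophils became 698 with 200 or more genes, 270 with 200 or more genes and without cells holding mononuclear phagocyte UMIs, 50 among genes of 5 kb of intron or less and 12 by DESeq2. They ran from 42 (without WT 1) to 240 (without WT 2). Without TMM scaling 83.6% of calls were higher, against 76.5%, and the median of all genes moved from 0.03 to 0.30; with 200 or more genes and no mononuclear phagocyte UMIs 91.5% were higher. The 11 calls in the difference between cell types became 46 with 200 or more genes, 20 there without mononuclear phagocyte UMIs, 5 without them alone, 7 without ranked doublets, 17 with DESeq2 size factors, 0 by DESeq2, 6 among genes of 5 kb of intron or less, 7 against lymphocytes and 17 against epithelial cells, and ran from 2 to 18 with a wild-type library left out. Ccl24 reversed to -2.81 with 200 or more genes and without mononuclear phagocyte UMIs. Of 31 named genes, DESeq2 kept the call of 2 of the 22 it gave an adjusted p, and leaving out WT 1 kept 5 of the 12 still tested. Over all settings 351 values kept their call, 62 kept their direction but missed the threshold, and in 83 cases the gene was not tested. The causes were not tested. WT 2 and WT 3, with 29 and 22 neutrophils, limit every comparison.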
